A study of Drosophila melanogaster with 4 samples.

Results

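Isolated H2Av regions were stretches of chromatin enriched with an H2Av antibody that stood alone along a chromosome arm of Drosophila melanogaster. They were selected on position alone, from the authors' list for the replicate set. A region of X, 2L, 2R, 3L or 3R was a member when the gap to the neighbouring region was 10000 bp or more on both sides. The rule found 449 members among 5403 regions on the 5 arms and 6065 in the whole list. The first and last region of each arm, 10 in all, have a neighbour on 1 side only and were left out, so members were 8.33% of the 5393 regions that could qualify. A further 1914 regions had such a gap on 1 side and 3030 on neither side. These other regions served for comparison. Gap lengths chose the members, so the gaps below are descriptions.

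H2Av is the only H2A variant of the fly and carries out the work that H2A.Z and H2A.X share in mammals. It is exchanged into nucleosomes by the Domino (Tip60) remodelling complexes, is typically found downstream of the start sites of active genes, and also occurs in heterochromatin. Its tail is phosphorylated beside DNA breaks. A lone enriched region is one with no other enriched stretch close by.

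The cells were S2-DRSC, a cultured male line from late embryos. All 4 samples, 2 ChIP and 2 input, came from cells given double-stranded RNA against H2Av (CG5499). The doses were 50 µg and, after about 4 days of growth, 200 µg. The antibody, number 9751, was a rabbit polyclonal raised against a peptide of H2Av. Lists of regions were analysed for both ChIP replicates and for the replicate set. The inputs had no list of regions, and untreated cells were not analysed here, so no value below measures an effect of the treatment. The amount of H2Av left in the cells was not measured here, and "H2Av region" means a region enriched with this antibody.

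Positions follow FlyBase release 5. A release 5 genome and annotation were not used here, so regions are given by position and without genes or sequence. The lists carry a score deposited by the authors, used below to rank regions within a list. No counts are listed, so the read depth behind a region is unknown. Each replicate value is given with the SD over 2 replicates. With 2 replicates no permutation test can pass 0.05, and the replicate-set list came from the same replicates, so no p-value is reported. Intervals for shares are exact 95% binomial intervals over regions, which share libraries and are not replicates.

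Isolated regions were narrower and lower-scored than the rest. Their median width was 2631 bp in the replicate-set list, with quartiles at 1671 and 4527 bp. Regions with a long gap on 1 side had a median of 3523 bp, and those with a long gap on neither side 3905 bp. The latter are called crowded below. The median score followed the same order, at 0.68, 0.87 and 0.95. Of the 449 members, 58 were narrower than 1.3 kb, 192 were 1.3 to 3 kb wide and 199 were wider. Members over 10 kb wide numbered 31 (6.90%), against 12.1% of the other arm regions.

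The same order appeared when the gap rule was applied to each replicate list by itself. Regions isolated in their own list had a median width of 3147 bp in replicate 1 and 3133.5 bp in replicate 2. Regions with a long gap on neither side had 3999.5 and 3900 bp. The difference in medians was -809.5 ± 60.8 bp (SD, n = 2), which is larger than the spread between the replicates. Median scores of isolated regions were 1.03 and 1.12, against 1.29 and 1.33, a difference of -0.23 ± 0.04 (SD, n = 2). Both replicates thus placed isolated regions below crowded ones in width and in score.

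Members varied widely among themselves. Scores ran from 0.07 to 3.14, and 176 members (39.2%) scored at or above the median of all arm regions. Wider members had higher scores, with a Spearman correlation of 0.756 over the 449 members and 0.734 over the 4944 other regions. Regions are not independent replicates, and width and score come from the same reads. The highest scores broke this relation, since 3 members about 1 kb wide had scores far above all others.

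**Figure D1:**
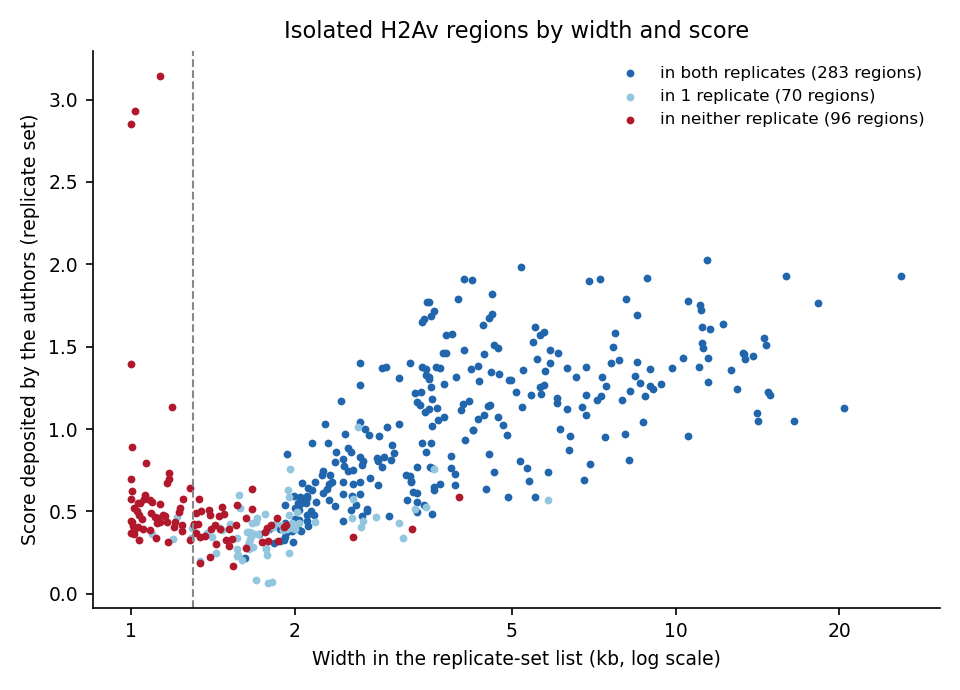
Each point is 1 of the 449 isolated regions, placed by its width (kb, log scale) and its deposited score in the replicate-set list, and coloured by the replicate lists that hold it. The dashed line marks 1.3 kb, the narrowest region in either replicate list. The 283 regions held by both replicates start at 1623 bp, and 53 of the 96 held by neither lie left of the line.

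Most isolated regions were found again in the replicate lists. A region of replicate 1 overlapped 320 members (71.3%) and a region of replicate 2 overlapped 316 (70.4%), a mean of 70.8% ± 0.630 (SD, n = 2). Overlap was counted from 1 shared bp. Both replicates held 283 members, or 63.0% (interval 58.4% to 67.5%), against 67.8% of all 5393 arm regions with 2 neighbours. A single replicate held 70 members (15.6%), 37 in replicate 1 and 33 in replicate 2, and 96 (21.4%) were in neither. Of regions with a long gap on 1 side, 10.9% were in a single replicate and 22.4% in neither. For crowded regions these shares were 12.1% and 18.8%. The share in both was 66.8% for regions with a long gap on 1 side and 69.1% for those with a long gap on neither side. The replicate set comprises these replicates, so a high share is built in, and only the differences between classes are of interest here.

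What was found again depended on width in every gap class. None of the 58 members under 1.3 kb was in both replicates, and 5 were in 1. In that width class both replicates held 0 of 223 regions with a long gap on 1 side and 1 of 287 crowded regions. Of the members from 1.3 to 3 kb, 92 (47.9%) were in both, 59 in 1 and 41 in neither. Of those over 3 kb, 191 (96.0%) were in both, against 97.6% with a long gap on 1 side and 96.5% of crowded regions. The narrowest region was 1.3 kb wide in each replicate list and 1001 bp in the replicate-set list. A narrower member could therefore match only a wider replicate region, and its absence from a replicate list says little about enrichment.

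Members in both replicates had medians of 3697 bp in width and 1.05 in score. Those in 1 replicate had 1769 bp and 0.39, and those in neither 1234 bp and 0.44. The narrow members in neither replicate were not confined to low scores. Only 2 members in neither replicate exceeded 3 kb, X 21071114 to 21075110 (3997 bp, score 0.59) and 3R 9456944 to 9460224 (3281 bp, score 0.39). These 2 were singled out after their values were seen.

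At equal width, isolation and repeatability were related in a way that depended on the list used. Among regions 1.3 to 3 kb wide in the replicate-set list, 63.3% ± 4.05 of members were overlapped by a replicate region, against 47.8% ± 1.35 of regions with a long gap on neither side (SD, n = 2 each). The difference was 17.4 points in replicate 1 and 13.6 in replicate 2. The share in both replicates was 47.9% (interval 40.7% to 55.2%) for members, 30.2% (27.1% to 33.5%) for regions with a long gap on neither side and 33.6% for all 1614 regions of that width. Median widths (1943 and 1933 bp) and median scores (0.46 and 0.44) of members and crowded regions were close within this class. The upper quartile of score was 0.63 for members and 0.57 for crowded regions, so scores were not fully matched. Over 3 kb the shares overlapped were 97.5% ± 1.42 for members, 98.7% ± 0.128 with a long gap on 1 side and 97.8% ± 0.0371 on neither (SD, n = 2 each). The width class was fixed with earlier results known.

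This difference was not seen when each replicate was judged by the other. Here the gap class and the width came from 1 replicate list and the overlap from the other, so the replicate-set list had no part. From 1.3 to 3 kb, 76.7% ± 0.751 of isolated regions were found in the other replicate, against 78.0% ± 2.63 of regions with a long gap on neither side (SD, n = 2 each). The difference of -1.25 ± 1.88 points (SD, n = 2) was within the spread between replicates. Finer classes went both ways. From 1.3 to 1.6 kb, 15 of 52 isolated regions of replicate 1 and 21 of 58 of replicate 2 were found again, a difference of -17.5 ± 3.02 points from regions with a long gap on neither side. From 2 to 3 kb, 124 of 126 and 123 of 127 were found again, a difference of 3.81 ± 1.07 points (SD, n = 2 each). Over 3 kb, all 262 isolated regions of replicate 1 and all 261 of replicate 2 were found again. Over all widths the difference was -3.97 ± 0.372 points (SD, n = 2). Among replicate-set regions with a score of 0.5 to 0.75 at any width, 69.1% of members and 69.0% of crowded regions were overlapped (means of 2 replicates). Below 0.5, where the median scores of the 1.3 to 3 kb class lie, the shares were 37.2% ± 3.32 and 31.7% ± 1.36 (SD, n = 2 each). Members were higher there in both replicates. From 0.75 to 1 the replicates went opposite ways, and over 1 members were lower in both. The higher share of members at 1.3 to 3 kb was thus seen in the replicate-set list classed by width. Between replicates it was not seen over that whole range. Classed by score, members were higher in both replicates below 0.5 only.

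**Figure D2:**
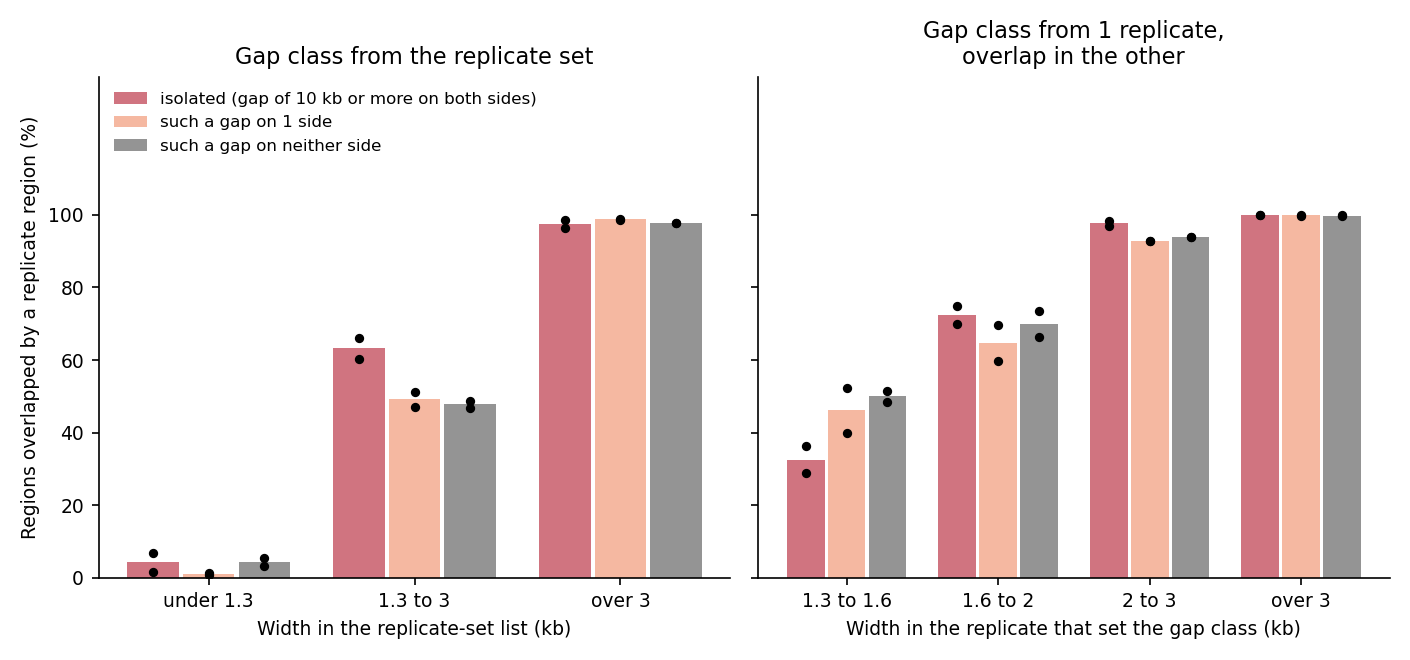
Bars show the mean share of regions (%) overlapped by a replicate region and points show the 2 replicates, by width class (kb) and gap class. On the left, gap class and width come from the replicate-set list; on the right, from 1 replicate, with overlap taken in the other. Isolated regions lead at 1.3 to 3 kb on the left (63.3% against 47.8%) and trail at 1.3 to 1.6 kb on the right (32.5% against 50.0%).

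The gaps of the matched replicate regions restate the rule in large part. Counted around each member, replicate 1 had at most 2 regions in the gaps that the replicate-set list lacks, and replicate 2 had 0. Little could therefore fall between members. The members were matched by 342 regions of replicate 1 and 347 of replicate 2. Of these, 299 (87.4%) and 288 (83.0%) also had gaps of 10000 bp or more on both sides in their own list, a mean of 85.2% ± 3.13 (SD, n = 2). Among the matched regions that did not qualify, 42 of 43 in replicate 1 and 57 of 59 in replicate 2 belonged to members that the replicate showed in 2 or more pieces. These counts describe the lists and are no independent support for isolation.

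The reverse match was looser. Replicate 1 had 493 isolated regions and replicate 2 had 494, and 60.6% and 58.3% of them matched a member. The others, 194 and 206, overlapped a replicate-set region that was no member, except 4 in replicate 1 that overlapped none. In the replicate-set list, 253 and 287 further regions lay within 10 kb of these. The median width of such neighbours was 1525 and 1543 bp, and their median score 0.42 in each comparison. Many regions isolated in a replicate thus had weak, narrow neighbours in the longer list.

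A core of 252 members (56.1%) was isolated in all 3 lists, with 1 matching region in each replicate. The replicates had at most 2 and 0 regions in member gaps that the replicate-set list lacks. A member with a single match in each replicate is therefore isolated there nearly by construction, and the core is no independent support for isolation. Core members had a median width of 3534 bp, between 1623 and 18267 bp, and a median score of 1.02. They numbered 37 on X, 56 on 2L, 39 on 2R, 58 on 3L and 62 on 3R. Of the 253 members matched by exactly 1 region in each replicate, only 3R 24669064 to 24672714 was not isolated in all lists; its shorter gap in the replicate-set list was 10053 bp.

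Scores of these 253 members kept their rank between the replicates. Their median score was 1.08 in replicate 1 and 1.13 in replicate 2, and the Spearman correlation across regions was 0.952 (Pearson 0.954). The same values for regions with a long gap on neither side were 0.955 and 0.957 over 1633 regions. Replicate 2 gave the higher score for 157 of the 253 (62.1%), with a median difference of 0.03, replicate 2 minus replicate 1, and an SD of 0.13 across regions. Members of 1.3 to 3 kb varied more in rank, with a Spearman correlation of 0.791 over 92 regions against 0.940 over the 161 wider ones.

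**Figure D3:**
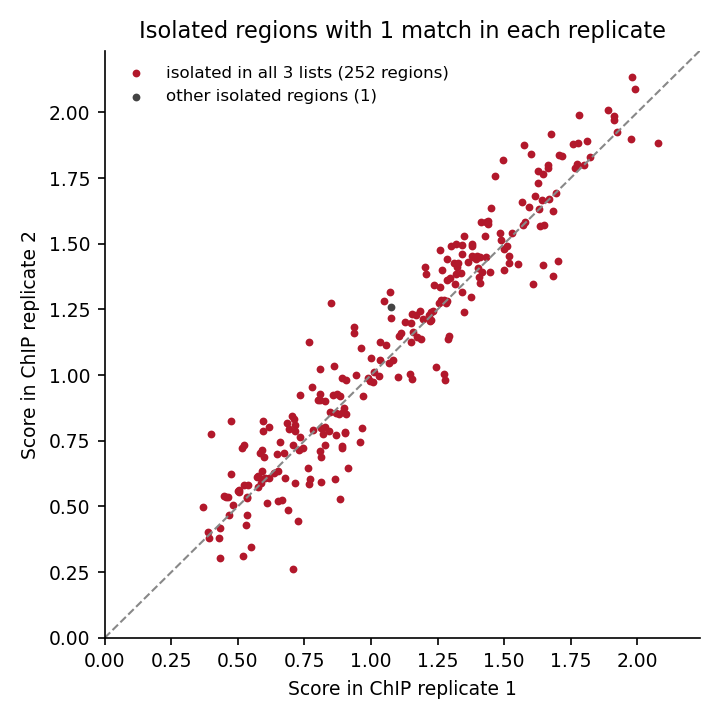
Each point is 1 of the 253 isolated regions that matched exactly 1 region in each replicate, with its deposited score in ChIP replicate 1 (x axis) and replicate 2 (y axis). The dashed line marks equal scores. Points lie along the line, and replicate 2 is higher for 157 of 253.

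The edges of isolated regions were also close between lists. Where a member matched 1 replicate region, that region was a median of 92.2% as wide as the member in replicate 1 and 93.0% in replicate 2. It started 86.3 ± 8.84 bp inside the member's start (SD, n = 2, from medians), and its end differed by -92.8 ± 1.77 bp, which is inside the member's end. Between the replicates, starts differed by a median of 100 bp and ends by 90 bp, and both ends lay within 100 bp for 65 of the 253 members (25.7%). For regions with a long gap on neither side, the median differences were 116 and 119 bp, and both ends lay within 100 bp for 22.0%. These gaps between classes were not tested.

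Members that came in pieces were wider in the median than those in 1 piece. In at least 1 replicate, 31 members appeared as 2 or more regions, and 15 did so in both. Their median width was 10519 bp, against 3539 bp for members in 1 piece in both replicates, and 17 of the 31 were over 10 kb wide. Their widths went down to 3479 bp, and 14 members over 10 kb were in 1 piece in both replicates. On X, 3L and 3R the widest member was among the 15. X 15462236 to 15488204 (25969 bp, the widest of all) had 2 regions in replicate 1 and 3 in replicate 2. 3R 24696022 to 24716380 (20359 bp) had 3 and 2, and 3L 20829288 to 20844098 (14811 bp) had 2 and 4. By contrast, 2L 141436 to 159702 (18267 bp) and 2R 1136828 to 1152792 (15965 bp) were single regions in both replicates. Matches other than single ones were not particular to isolated regions. Among regions in both replicates, single matches in each were counted for 253 of 283 members and 1633 of 2093 crowded regions. With a long gap on 1 side the count was 1036 of 1278.

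The gaps around members were uneven. The shorter of the 2 gaps had a median of 20015 bp, with quartiles at 13853 and 36279 bp, and the longer had a median of 61563 bp. The median gap between all neighbours on the arms was 2959 bp. Both gaps reached 50 kb for 76 members and 100 kb for 21. A long gap on 1 side went with a long gap on the other somewhat more often than long gaps occurred in general. Of all region sides with a gap of 10000 bp or more, 31.9% had such a gap on the opposite side too, while 26.1% of all sides had one. This difference is a description of the list and was not tested.

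Greater isolation did not go with a marked change in width or score. Spearman correlations of the shorter gap with width and score were -0.0585 and -0.0440 over the 449 members. The 223 members with a shorter gap of 10 to 20 kb had a median width of 2665 bp, the 150 with 20 to 50 kb had 2689 bp, and the 76 with 50 kb or more had 2273 bp. Median scores were 0.68, 0.72 and 0.60 in the same order, so the class with the longest gaps was lowest in both. The share overlapped by a replicate region was 73.1% ± 1.27, 70.0% ± 0.943 and 65.8% ± 1.86 (SD, n = 2 each). It was lower in the most isolated class than in the least isolated one in both replicates. The shares in both replicates, 65.9% (interval 59.3% to 72.1%) and 55.3% (43.4% to 66.7%), had overlapping intervals, and this difference was not tested.

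The most isolated member of each arm differed in strength. On 3L, 10216838 to 10219308 had 246157 and 235237 bp of empty sequence on its sides, the longest shorter gap of all. It scored 0.97 in the replicate-set list, 1.10 in replicate 1 and 0.99 in replicate 2. On X, 2841154 to 2843584 had gaps of 156341 and 221009 bp and scores of 1.17, 1.18 and 1.25 in the same order. Its edges differed by 5 bp or less between the replicates, at 2841188 to 2843508 and 2841183 to 2843513. On 2R, 12319104 to 12321356 had a shorter gap of 77325 bp and scores of 0.61, 0.64 and 0.63. These 3 members were between 2253 and 2471 bp wide, and each was seen in both replicates. On 2L, 14587206 to 14588982 (1777 bp, score 0.40, shorter gap 222357 bp) was in neither replicate. The same held for 3R 1992066 to 1993534 (1469 bp, score 0.52, shorter gap 154525 bp).

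On either side of the gap limit the nearest regions are given as a description. The 3 just inside were 2R 2721142 to 2723088 and 3R 15038460 to 15041002, each with a shorter gap of 10017 bp, and 3R 14472240 to 14473528 with 10027 bp. They were 1947, 2543 and 1289 bp wide, their scores were 0.48, 0.46 and 0.34, and each was in 1 replicate only. Just outside were the neighbours 2R 18204008 to 18207372 and 2R 18217358 to 18222106, 9985 bp apart, and X 1987106 to 1989884 with 9973 bp. Those were 3365, 4749 and 2779 bp wide, scored 1.30, 1.39 and 0.76 and were in both replicates. Members close inside were not all weak, so these few regions mark no break at the limit. The member 3R 22768250 to 22773192, chosen after its values were seen, had a shorter gap of 10029 bp. It was 4943 bp wide, scored 1.30 and was in both replicates.

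Isolated regions were spread over all 5 arms. X had 75, 2L 89, 2R 76, 3L 93 and 3R 116, or 3.34, 3.87, 3.59, 3.79 and 4.16 per Mb. As a share of the arm's regions, they were 6.73% on 2R (interval 5.34% to 8.35%), 7.39% on X (5.86% to 9.17%) and 8.56% on 3L (6.96% to 10.4%). On 3R they were 9.44% (7.86% to 11.2%) and on 2L 9.54% (7.73% to 11.6%). In the replicates' own lists, 2R again had the lowest share, at 8.83% ± 0.754, and 3R the highest, at 12.2% ± 0.295 (SD, n = 2 each). Values for X (10.8% ± 0.0534), 3L (10.9% ± 0.517) and 2L (11.4% ± 0.676) lay between them. The replicate values of 2R and X did not overlap, nor did those of 2L and 3R, while those of 3L overlapped with both X and 2L. The share that meets a fixed gap rule depends on how closely the regions of an arm lie. 2R had 1131 regions in 21.1 Mb, 3R 1231 in 27.9 Mb and 2L 935 in 23.0 Mb. Differences between arms are thus not separate from the spacing that chose the members.

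**Figure D4:**
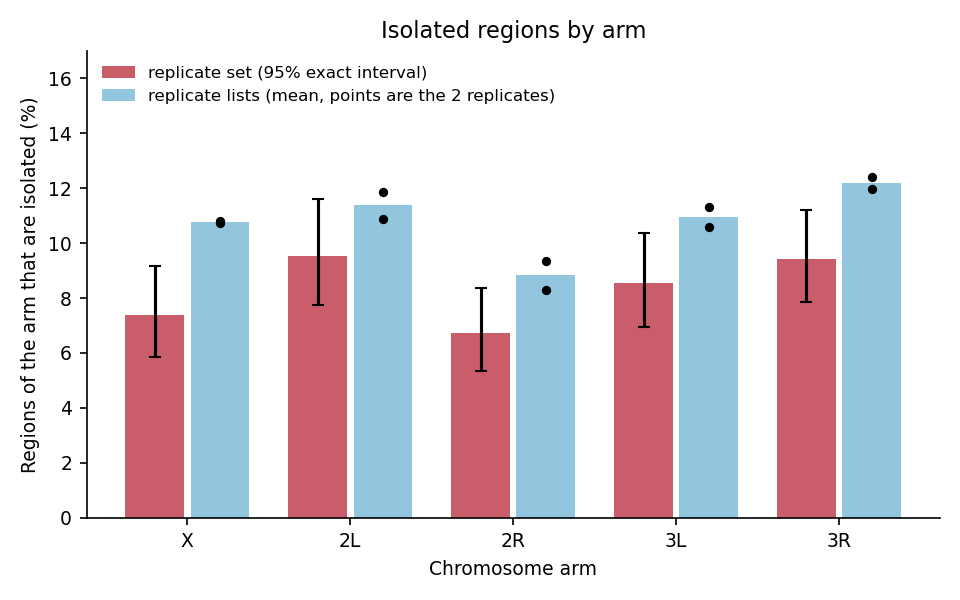
Bars show the share of each arm's regions (%) that were isolated, in the replicate-set list with exact 95% binomial intervals and in the replicate lists as the mean of 2 replicates, which are drawn as points. The lowest bars are on 2R, at 6.73% and 8.83%.

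On X, the median score of members lay farthest below that of the other regions of the arm in the replicate-set list. Members on X were not the lowest-scored, while the other regions scored highest on X. The median score of members on X was 0.70 and that of the other X regions 1.02, while the pairs were 0.68 and 0.83 on 2L, 0.62 and 0.88 on 2R, 0.72 and 0.86 on 3L, and 0.71 and 0.90 on 3R. Members on X were in both replicates in 44 of 75 cases (58.7%), on 2R in 59.2%, on 3R in 62.1%, on 3L in 64.5% and on 2L in 69.7%. Differences between arms were not tested.

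Along the arms, isolated regions lay near the centromere about as often as regions with a long gap on 1 side. The fifth of the arm nearest the centromere held 86 members, or 19.2% (interval 15.6% to 23.1%). It held 20.4% of regions with a long gap on 1 side (18.6% to 22.3%), 28.5% of regions with a long gap on neither side (26.9% to 30.2%) and 24.9% of all arm regions. In the 10 equal parts counted from the centromere, members numbered from 40 to 49. All arm regions numbered 687 and 659 in the 2 parts nearest the centromere and from 449 to 583 in the others. Gap classes were set by spacing, so fewer regions can be isolated where regions lie close. The difference in placement between classes is therefore in part built in.

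**Figure D5:**
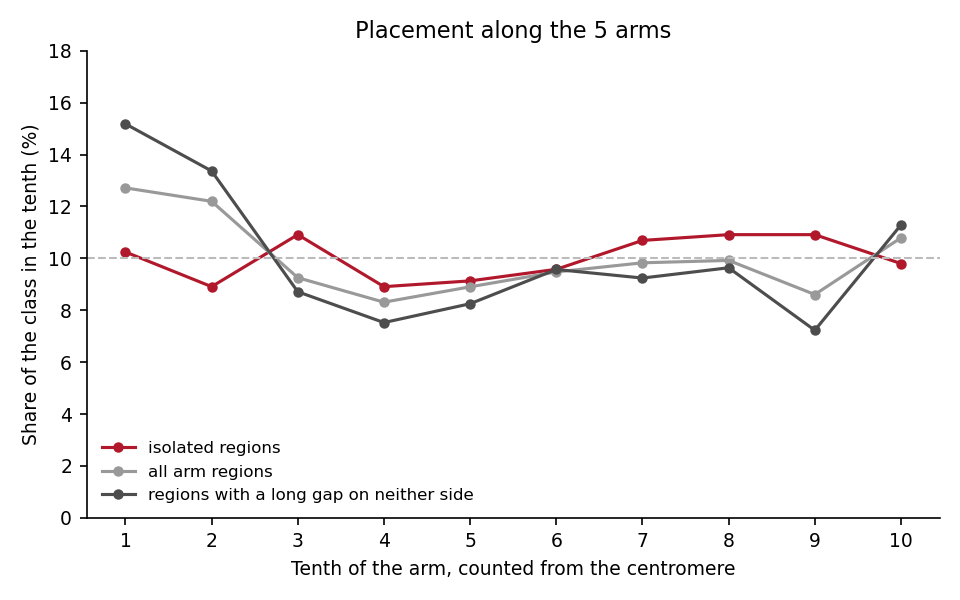
Lines show the share of each class (%) in each of 10 equal parts of the arm, counted from the centromere and pooled over 5 arms; the dashed line marks an equal share of 10%. Isolated regions stay between 8.91% and 10.9%, while regions with a long gap on neither side reach 15.2% in the part nearest the centromere. The classes were set by spacing, so the lines depend on how closely regions lie.

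Isolated regions near the centromere were weaker than those elsewhere. In the replicate-set list, the 86 members in the fifth nearest the centromere were typically 1976 bp wide (median) with a score of 0.56, while the other 363 had medians of 2733 bp and 0.74. Both replicates held 39 of the 86 (45.3%, interval 34.6% to 56.5%) and 244 of the 363 (67.2%, 62.1% to 72.0%). The intervals cover counting over regions, which are not replicates, so they are no test of this difference. For regions with a long gap on neither side, the shares in both replicates were 66.0% (62.7% to 69.2%) and 70.3% (68.3% to 72.2%). Members under 1.3 kb, which no replicate can list at that width, made up 22.1% of the proximal members and 10.7% of the others. None of the 58 members of that width was in both replicates, so part of the difference in shares is built in.

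The replicates' own lists gave the same direction. Isolated regions in the fifth nearest the centromere had a median score of 0.81 in replicate 1 and 0.84 in replicate 2, against 1.10 and 1.16 on the rest of the arm. The difference, proximal minus rest, was -0.30 ± 0.02 for isolated regions, -0.13 ± 0.02 for regions with a long gap on 1 side and -0.27 ± 0.02 for those with a long gap on neither side (SD, n = 2 each). Lower proximal scores were therefore shared by every gap class. In width the classes parted in these lists. The difference was -548.25 ± 142 bp for isolated regions and -199 ± 96.2 bp for those with a long gap on neither side. For regions with a long gap on 1 side it was 78.0 ± 52.3 bp (SD, n = 2 each). In the replicate-set list, by contrast, the proximal median width was lower in every class. It was 3303 against 3555 bp with a long gap on 1 side, and 3845 against 3909 bp with one on neither side. Mappability near the centromere was not analysed here, and its part in these values was not tested.

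The highest-scored members in both replicates were spread over the arms, 4 on 3R, 2 on 3L, 2 on 2L, 1 on 2R and 1 on X. The first, 3R 7444536 to 7455970, was 11435 bp wide and scored 2.02 in the replicate set, 1.98 in replicate 1 and 2.13 in replicate 2. The second, 3R 6155494 to 6160694, was 5201 bp wide and scored 1.98, 1.99 and 2.09. Both lay between gaps of 12895 to 27743 bp and were single regions in each replicate. The next were 2R 1136828 to 1152792 (score 1.93) and X 15462236 to 15488204 (1.93), the widest members of their arms. 3R 18437014 to 18445886 (1.92), 3L 7903134 to 7910402 (1.91) and 2L 249696 to 253784 (1.91) followed. The last of these is also part of a run of 4 members at the tip of 2L. 3R 4889082 to 4893306 (1.90) had a gap of 168145 bp on 1 side, and 3L 18736700 to 18743638 (1.90) had gaps of 55945 and 68931 bp. 2L 5008200 to 5012796 (1.82) closed the list. In all 10, the region seen in each replicate scored between 1.68 and 2.13. For the member in pieces on X, this is the region with the most overlap, and the other pieces lie beside it.

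Members in neither replicate included the 3 highest scores of all members. They were 3L 5298618 to 5299748 (1131 bp, score 3.14), 3L 21359252 to 21360270 (1019 bp, 2.93) and 2L 4540404 to 4541404 (1001 bp, 2.85). All 3 were narrower than any region listed in a replicate. A score that recurred exactly elsewhere on the arms was found for 31 of the 96 members in neither replicate, 10 of the 70 in 1 replicate and 11 of the 283 in both. Recurring scores were about as frequent among narrow regions of each class, at 32.8% of members under 1.3 kb, 36.3% of such regions with a long gap on 1 side and 34.8% of those with a long gap on neither side. Their cause was not tested.

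Consecutive members share a long gap. Of the 449, 210 stood between regions that were not members, while 239 (53.2%) were part of 96 runs of 2 or more consecutive members. Each neighbour of a member already has a long gap on the shared side by the rule. With 31.9% of such sides having a long gap on the opposite side too, runs are built in, and no excess over this was shown. Runs of 4 or more numbered 13. The longest, 6 members on 2L from 20119116 to 20352024, spanned 233 kb, of which 12.7 kb was covered. Its first and last members, 2L 20119116 to 20121220 (score 0.44) and 2L 20348602 to 20352024 (score 1.38), were in both replicates. The fifth, 2L 20308980 to 20312082, was in replicate 2 only, and the other 3, between 1061 and 1865 bp wide, were in neither. The widest-spaced run of 5 lay on 3L from 14064052 to 14556030, with 16.0 kb covered in 492 kb. Together the 449 members covered 1712 kb, which is 6.12% of the sequence enriched on the arms.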

How the data were processed

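The deposited files were 3 lists of enriched regions, 1 per ChIP replicate and 1 for the replicate set. Each region has a start, an end and a score given by the authors. Per the file headers, coordinates are those of FlyBase release 5. The submitters' processing notes name Bowtie 0.12.7. How regions were called, at which threshold, with which score formula and with or without the inputs was not given in the sources used here. A region marked as depleted was left out, and regions running past the header's sequence length were ended there. Samples were grouped by title; ChIP replicate 2 carries an input-like description. Whether replicates were separate cultures is not stated, so their spread may be technical.

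Gaps, overlaps (1 bp or more), widths and shares were computed with Python 3.11.15, numpy 2.4.6, pandas 2.3.3 and scipy 1.17.1; figures used matplotlib 3.10.9. The gap rule and overlaps were tested on simulated data. Intervals are exact (Clopper-Pearson, 95%) and cover counting over regions only. The proximal end is the high coordinate on X, 2L and 3L and the low one on 2R and 3R. Where several replicate regions overlapped a member, the score of the most overlapping one is given.

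Named regions are the 10 highest-scored members in both replicates, the widest and the most isolated member per arm, 3 on each side of the gap limit, the 3 highest-scored in neither replicate and the longest run; others are said to be chosen later. Members, classes and lists were chosen with earlier results of these data known. Alternatives were gap limits of 5000 and 20000 bp, removal of regions under 1.3 kb, upper-scored members, an overlap of 50% of both regions, leaving out a replicate, the tenth nearest the centromere, leaving out 2L, and the rule applied to replicate lists.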

Additional observations from a re-analysis of the deposited data

How the results depend on the processing

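Alternatives gave 54 values. The 10 that leave out a replicate only return the other replicate and say nothing about stability: they ran from 70.4% to 71.3% for the share of members overlapped, 2994 to 3032 bp for matched width, -0.27 to -0.24 for the score difference (matched minus other), 83.0% to 87.4% for isolation in the own list, and 13.6 to 17.4 points for the difference at 1.3 to 3 kb. Of the other 44, 16 stayed within the replicate SD, the interval or 1.5 times the count, 26 moved by more and 2 reversed. The score difference became 0.15 among members at or above the arm median, a setting that selects high scores. The difference at 1.3 to 3 kb, 15.5 points, became -1.25 with gap class and width from 1 replicate; that comparison and all others of this difference were chosen after seeing the data. It was 10.7 at a gap limit of 5000 bp, 12.1 at 1.3 to 2 kb, 18.6 at 2 to 3 kb and 0.106 in the score class of 0.5 to 0.75. Score classes outside that range were not among these values and gave other differences.

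A gap limit of 5000 bp gave 895 members, a matched width of 3238.5 bp, a score difference of -0.15 and 81.3% isolated in their own list. A limit of 20000 bp gave 226 members, 68.6% overlapped and 89.4% isolated. Removing regions under 1.3 kb gave 80.8% overlapped, 72.6% in both, 3115.5 bp and -0.21. The 176 upper-scored members were 96.3% overlapped, 96.0% in both, 4380.25 bp wide when matched, 79.6% isolated and 11.9% proximal. Overlap of 50% of both regions gave 67.8% overlapped, 3071 bp, -0.21 and 95.1% isolated. The tenth nearest the centromere held 10.2%. Where no cause is given it was not tested. No paired analysis was possible because the 2 labelled groups, ChIP and input, were not compared: the lists give no input values. Differences between gap classes were taken within each replicate. With depth unknown, weak regions missing from a replicate cannot be read as absent.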
